A study of Homo sapiens with 9 samples.

Results

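The 37 genes of the mitochondrial genome were taken from the 60623 genes of each file by their names, which start with MT-. They comprise 13 mRNAs, 2 rRNAs and 22 tRNAs, and all 37 matched an entry of the RefSeq annotation of GRCh38.p14. RNA-seq was carried out on 3 stable lines of U937, a human monocytic cell line, with 1 library for each line at 0, 12 and 48 h of doxycycline at 5 µg/ml, which gave 9 libraries. The lines shared the U937 background. The first carried an empty vector (genotype WT in the labels), the second an inducible AML1-ETO cDNA (clone #4) and the third an inducible ETO2-GLIS2 cDNA (clone #14), all brought in by a retroviral Tet vector, and they are called empty vector, AML1-ETO and ETO2-GLIS2 cells below. Stable lines were selected as single clones, so a difference between lines and a difference between clones cannot be told apart. All libraries at 12 and 48 h had received the drug, and the 0 h libraries had not. With 1 library per condition no difference has a replicate check, and the intervals below cover counting error only.

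Mitochondria carry a small circular genome that encodes core subunits of the respiratory chain and of ATP synthase, together with the rRNAs and tRNAs needed to translate them. Both strands are transcribed into long RNAs that hold many genes, and these are cut at the tRNAs that lie between the mRNAs and rRNAs. Most of the mRNAs then receive short poly(A) tails. The levels of genes from one long RNA are set by its synthesis and by the stability of each product. Doxycycline is a tetracycline, a class of drugs known to slow mitochondrial ribosomes, and every induced library, empty vector cells included, was exposed to it.

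The annotated stop codon is incomplete in 6 of the 13 mRNAs and is completed by the poly(A) tail. It is shown here because the libraries were made from polyadenylated RNA. The last bases of these 6 genes are given 5′ to 3′, with the encoded part of the stop codon in capitals. MT-ND1 encodes TA and needs 1 added A, and the other 5 encode T and need 2. MT-ATP6 is not counted with them, because its annotated stop codon includes the 1 base it shares with MT-CO3. Where the MT-ATP6 RNA ends was not tested.
MT-ND1: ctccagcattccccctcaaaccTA
MT-ND2: cccttttatactaataatcttaT
MT-CO3: ctccatctattgatgagggtctT
MT-ND3: aaaaggattagactgaaccgaaT
MT-ND4: catcattaccgggttttcctctT
MT-CYB: aaacaaaatactcaaatgggccT

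Pairs of neighbouring genes also share bases, which matters for how their reads were counted. MT-ATP8 (chrM:8366-8572) and MT-ATP6 (chrM:8527-9207) are read from one RNA and overlap by 46 bases, and MT-ND4L (chrM:10470-10766) and MT-ND4 (chrM:10760-12137) overlap by 7 bases. MT-ATP6 also shares 1 base with MT-CO3. The last bases of MT-ATP8 and MT-ND4L are shown with the overlap in capitals. The overlap makes up 22.2% of MT-ATP8 and 6.75% of MT-ATP6, and by default HTSeq leaves out a read that touches both genes, so the level of MT-ATP8 is understated more than that of MT-ATP6.
MT-ATP8, bases 148 to 207: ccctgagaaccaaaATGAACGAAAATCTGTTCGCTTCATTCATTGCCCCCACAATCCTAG
MT-ND4L, bases 238 to 297: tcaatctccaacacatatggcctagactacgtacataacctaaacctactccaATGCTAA

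Values are FPKM, reads per gene divided by exon length and by the total of reads on genes, which makes levels comparable between genes of different length. Whole reads recovered from the FPKM values gave 15136398 to 18443639 reads on genes per library. The partner genes of the fusions were read at the gene level, which does not show the fusion transcript itself. RUNX1T1, which supplies the ETO part of AML1-ETO, was at 0.512, 22.2 and 28.7 FPKM at 0, 12 and 48 h in AML1-ETO cells and at most 0.024 FPKM in the other lines. GLIS2 was at 2.39, 6.79 and 8.85 FPKM in ETO2-GLIS2 cells, at 4.76, 3.64 and 3.72 FPKM in empty vector cells and at 5.6004, 2.93 and 2.47 FPKM in AML1-ETO cells, so the uninduced ETO2-GLIS2 library was the lowest of all 9. CBFA2T3, which encodes ETO2, was at 4.10, 11.4 and 12.6 FPKM in ETO2-GLIS2 cells, at 4.75, 6.38 and 6.002 FPKM in empty vector cells and at 5.26, 2.28 and 0.22 FPKM in AML1-ETO cells. Both GLIS2 and CBFA2T3 were thus highest in the induced ETO2-GLIS2 libraries. Of 10 monocytic markers, 9 were above 1 FPKM in at least 1 library and MPO was not, and of 8 markers of other cell types CD3E, HBG1, HBB and EPCAM were listed at 0 throughout.

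In the 3 uninduced libraries the mitochondrial genes held between 20.9% and 23.5% of all FPKM, or 6.14% to 7.01% of the reads on genes, since the genes are short. MT-CO1, the catalytic core subunit of cytochrome c oxidase (complex IV), had the highest FPKM of all genes in each uninduced line, and 8 or 9 of the 10 genes with the highest FPKM were mitochondrial. The uninduced lines were alike in their mRNAs. The highest of the 3 uninduced libraries exceeded the lowest by 1.15-fold (MT-CO2) to 1.82-fold (MT-ND4L), with a median of 1.34-fold over the 13 mRNAs. The rRNAs differed more: MT-RNR2, the large ribosomal RNA, spanned 2.59-fold and MT-RNR1, the small ribosomal RNA, 1.98-fold, both lowest in empty vector cells.

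**Figure D1:**
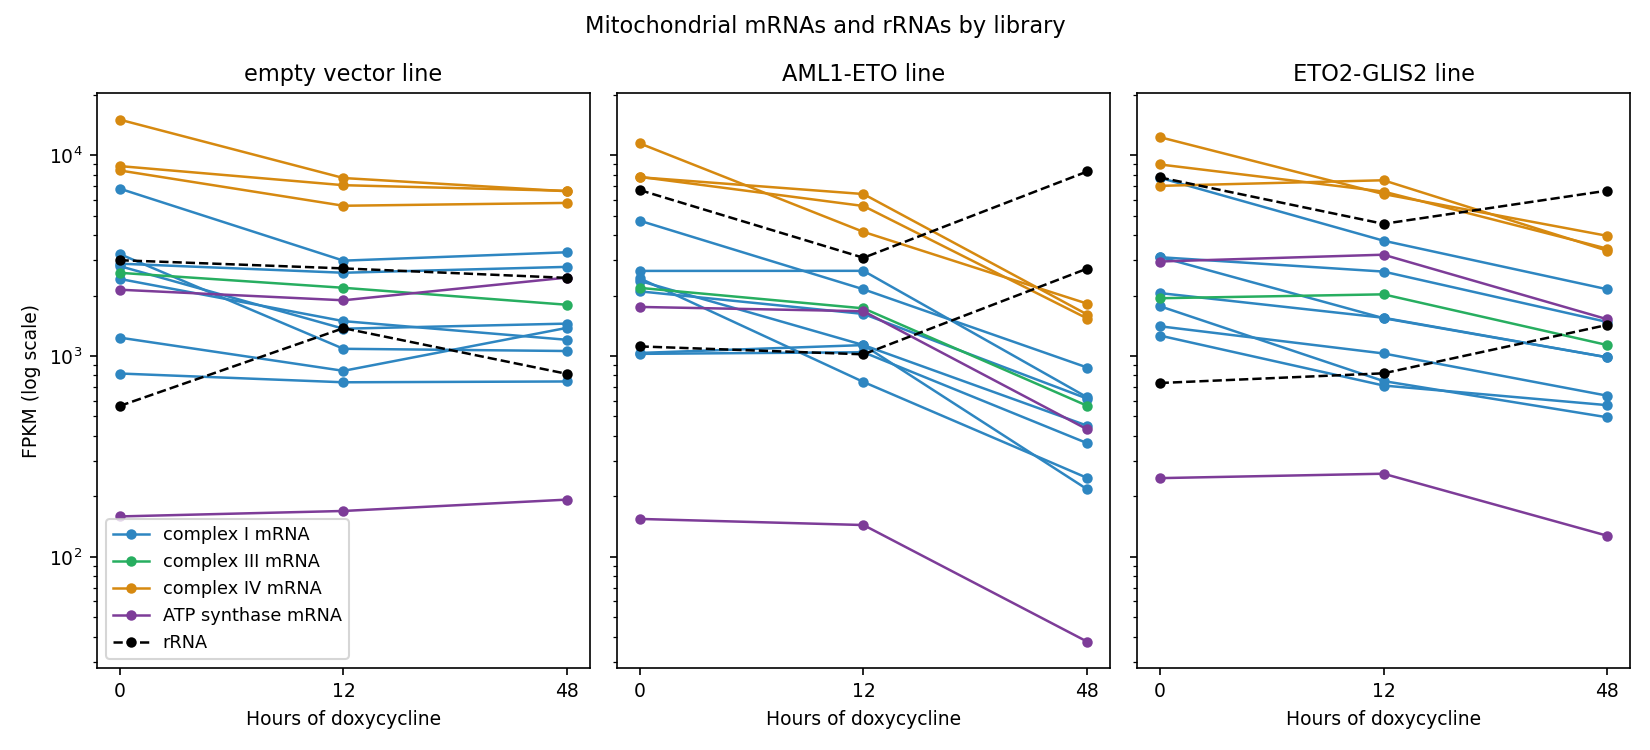
FPKM (log axis) of the 13 mRNAs, coloured by respiratory complex, and of the 2 rRNAs (dashed) at 0, 12 and 48 h of doxycycline, 1 panel per line and 1 library per point. All 13 mRNAs are lowest in the AML1-ETO library at 48 h, where both rRNAs are at their highest.

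At 48 h all 13 mitochondrial mRNAs were more than 2-fold lower than at 0 h in AML1-ETO cells, against 11.3% of the 12030 genes tested, where a gene was tested with a mean of at least 1 FPKM over both libraries. Their median log2 change was −2.26, which left 20.9% of the 0 h level, with an interval of −2.43 to −1.95 from ranks 3 and 11 of the 13 genes, and the median of all genes tested was 0.22. In ETO2-GLIS2 cells 10 of 13 were more than 2-fold lower, against 2.54% of genes tested, with a median of −1.15 (interval −1.66 to −0.96). That count became 5 of 13 after rescaling to the summed FPKM of all genes, and likewise 5 with the change of empty vector cells subtracted. It was 8 against 0 h of empty vector cells and 12 after rescaling by the median ratio over nuclear genes. In empty vector cells 4 of 13 were more than 2-fold lower, against 2.99%, with a median of −0.53 (interval −1.05 to 0.16). None of the 13 was more than 2-fold higher in any line at 12 or 48 h, where between 3.03% and 17.3% of genes tested were (5.64%, 6.57% and 3.03% at 12 h and 8.00%, 17.3% and 10.8% at 48 h in empty vector, AML1-ETO and ETO2-GLIS2 cells). The genes of one mitochondrial RNA are not independent of each other, so these intervals describe the spread over genes and not over cultures.

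The 48 h libraries of the fusion lines also stood below libraries of other lines. In AML1-ETO cells at 48 h all 13 mRNAs were below their level in each of the other 8 libraries, as were 24.4% of the 11820 genes with a mean of at least 1 FPKM over all 9 libraries. In ETO2-GLIS2 cells at 48 h all 13 were below every 0 h and 12 h library of all lines, as were 15.9% of genes. In empty vector cells at 48 h MT-ND5 alone of the 13 met that condition, as did 12.7% of genes. The monocytic markers did not all move one way. Their summed FPKM over 10 genes at 0, 12 and 48 h was 2050, 2382 and 338 with AML1-ETO, 2298, 2355 and 879 with ETO2-GLIS2, and 1370, 1577 and 961 with the empty vector. At 48 h 4 of 7 markers tested were more than 2-fold lower in AML1-ETO cells (11.3% of genes tested) and none higher (17.3%). In ETO2-GLIS2 cells 3 of 8 were lower (2.54%) and 2 higher (10.8%). In empty vector cells 1 of 8 was lower (2.99%) and 1 higher (8.00%). The lower markers in ETO2-GLIS2 cells were the granule and secreted proteins LYZ, ELANE and AZU1, which went from 1283, 491 and 244 FPKM at 0 h to 332, 122 and 106 FPKM at 48 h. The higher ones were the surface proteins ITGAM (CD11b), from 2.23 to 11.5 FPKM, and CD33, from 6.16 to 12.4 FPKM, while SPI1, a myeloid transcription factor, was at 88.0 and 80.9 FPKM. In AML1-ETO cells SPI1 was lower too, at 92.6 and 11.9 FPKM, and ITGAM was at 1.01 and 0.832 FPKM. The part of these marker changes in the mitochondrial changes was not tested, and in bulk RNA a smaller number of mitochondria-rich cells and less RNA per cell cannot be told apart.

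Complex I, the NADH dehydrogenase that feeds electrons into the chain, takes 7 of the mRNAs, and they did not move as 1 block. MT-ND4L, a small membrane subunit, was at 3220, 1086 and 1059 FPKM at 0, 12 and 48 h in empty vector cells, at 2438, 742 and 247 FPKM in AML1-ETO cells and at 1771, 750 and 495 FPKM in ETO2-GLIS2 cells. Every induced library was thus below every uninduced one, as also held for MT-ND1, MT-ND4, MT-ND5, MT-CO1 and MT-CO2. The share of all genes with this pattern is not given here. Its log2 change in AML1-ETO cells at 48 h, −3.30 (95% interval −3.39 to −3.21), was the lowest of the 13 mRNAs, a 9.87-fold lower level.

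MT-ND4, which is read from the same RNA as MT-ND4L and encodes a proton-pumping subunit, was at 6814, 2983 and 3284 FPKM in empty vector cells, at 4717, 2148 and 876 FPKM in AML1-ETO cells and at 7719, 3750 and 2148 FPKM in ETO2-GLIS2 cells. MT-ND1, the subunit at the base of the membrane arm, was at 2804, 1367 and 1449 FPKM, at 2365, 1133 and 449 FPKM and at 3115, 1542 and 984 FPKM in the same order. Both genes were already at less than 50% of their 0 h level at 12 h in all 3 lines. Although MT-ND4 and MT-ND4L share an RNA, the ratio of their FPKM was 2.12, 2.75 and 3.10 in empty vector cells and 1.94, 2.89 and 3.55 in AML1-ETO cells, while in ETO2-GLIS2 cells it was 4.36, 5.00 and 4.34.

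MT-ND2, MT-ND3 and MT-ND5 encode further membrane subunits of complex I, and none of them was past 2-fold at 12 h. MT-ND2 was at 2882, 2597 and 2778 FPKM in empty vector cells, at 2652, 2654 and 622 FPKM in AML1-ETO cells and at 3104, 2632 and 1476 FPKM in ETO2-GLIS2 cells. MT-ND3 was at 1235, 843 and 1382 FPKM in empty vector cells, at 1035, 1133 and 217 FPKM in AML1-ETO cells and at 1406, 1029 and 634 FPKM in ETO2-GLIS2 cells. For both genes the AML1-ETO library at 12 h was within its 0 h level by 0.00 and 0.13 on the log2 scale, and the 48 h library of that line was more than 4-fold lower. MT-ND5 was at 2420, 1491 and 1203 FPKM, at 2098, 1619 and 613 FPKM and at 2057, 1550 and 985 FPKM, more than 2-fold lower at 48 h in all 3 lines.

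MT-ND6 is the only mRNA encoded on the opposite (light) strand, and it was the mRNA with the smallest change in AML1-ETO cells at 48 h. It was at 818, 740 and 747 FPKM in empty vector cells, at 1025, 1044 and 368 FPKM in AML1-ETO cells and at 1264.5, 713 and 569 FPKM in ETO2-GLIS2 cells. In AML1-ETO cells its log2 change at 48 h was −1.48, against −1.78 for MT-ND5, the next mRNA in order, and −1.15 in ETO2-GLIS2 cells. The library kit does not mark the strand, so reads of MT-ND6 and reads of RNA from the other strand at the same place cannot be told apart. How much MT-ND6 RNA the selection of polyadenylated RNA captured was not tested.

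MT-CYB, cytochrome b of complex III, was at 2595, 2185 and 1798 FPKM in empty vector cells, at 2184, 1727 and 565 FPKM in AML1-ETO cells and at 1939, 2027 and 1133 FPKM in ETO2-GLIS2 cells. Its change of −0.77 in ETO2-GLIS2 cells at 48 h was the smallest of the 13 there. The 48 h libraries of both fusion lines were below all other libraries of MT-CYB.

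Complex IV, which passes electrons to oxygen, takes the 3 most abundant mRNAs of the uninduced empty vector and AML1-ETO lines. MT-CO1 was at 15028, 7692 and 6606 FPKM in empty vector cells, at 11449, 4149 and 1821 FPKM in AML1-ETO cells and at 12297, 6401 and 3963 FPKM in ETO2-GLIS2 cells. The highest induced library was thus below the lowest uninduced one, as for MT-ND4L, and the share of all genes with this pattern is not given here. MT-CO1 held 26.2%, 24.1% and 22.8% of the summed mRNA FPKM in the uninduced empty vector, AML1-ETO and ETO2-GLIS2 lines, and between 13.8% and 21.5% in the induced libraries.

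MT-CO2, the subunit that takes electrons from cytochrome c, was at 8393, 5597 and 5783 FPKM in empty vector cells, at 7795, 5582 and 1536 FPKM in AML1-ETO cells and at 8989, 6586 and 3420 FPKM in ETO2-GLIS2 cells. MT-CO3, a further core subunit, was at 8822, 7085 and 6639 FPKM, at 7763, 6401 and 1607 FPKM and at 7029, 7497 and 3341 FPKM in the same order. Unlike MT-CO1, both changed by less than 0.6 on the log2 scale at 12 h in all 3 lines, and the ratio of MT-CO1 to MT-CO2 went from 1.47 to 0.743 in AML1-ETO cells between 0 and 12 h. MT-CO3 was the gene with the highest FPKM in empty vector cells at 48 h and in both fusion lines at 12 h.

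The ATP synthase subunits, MT-ATP6 in the proton channel and MT-ATP8 in the stalk, had changes within 0.1 of each other on the log2 scale at 48 h in each line, and with MT-ND3 were the mRNAs above their 0 h level in empty vector cells at 48 h. MT-ATP6 was at 2138, 1894 and 2457 FPKM in empty vector cells, at 1755, 1670 and 431 FPKM in AML1-ETO cells and at 2954, 3193 and 1523 FPKM in ETO2-GLIS2 cells. MT-ATP8 was at 159, 169 and 193 FPKM, at 154, 144 and 37.8 FPKM and at 246, 259 and 127 FPKM, which in AML1-ETO cells corresponds to 530 reads at 0 h and 119 reads at 48 h. Both had a log2 change of −2.03 in AML1-ETO cells at 48 h, with 95% intervals of −2.07 to −1.98 for MT-ATP6 and −2.33 to −1.74 for MT-ATP8. In empty vector cells the changes were 0.20 and 0.28 at 48 h, and in ETO2-GLIS2 cells −0.96 and −0.95.

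**Figure D2:**
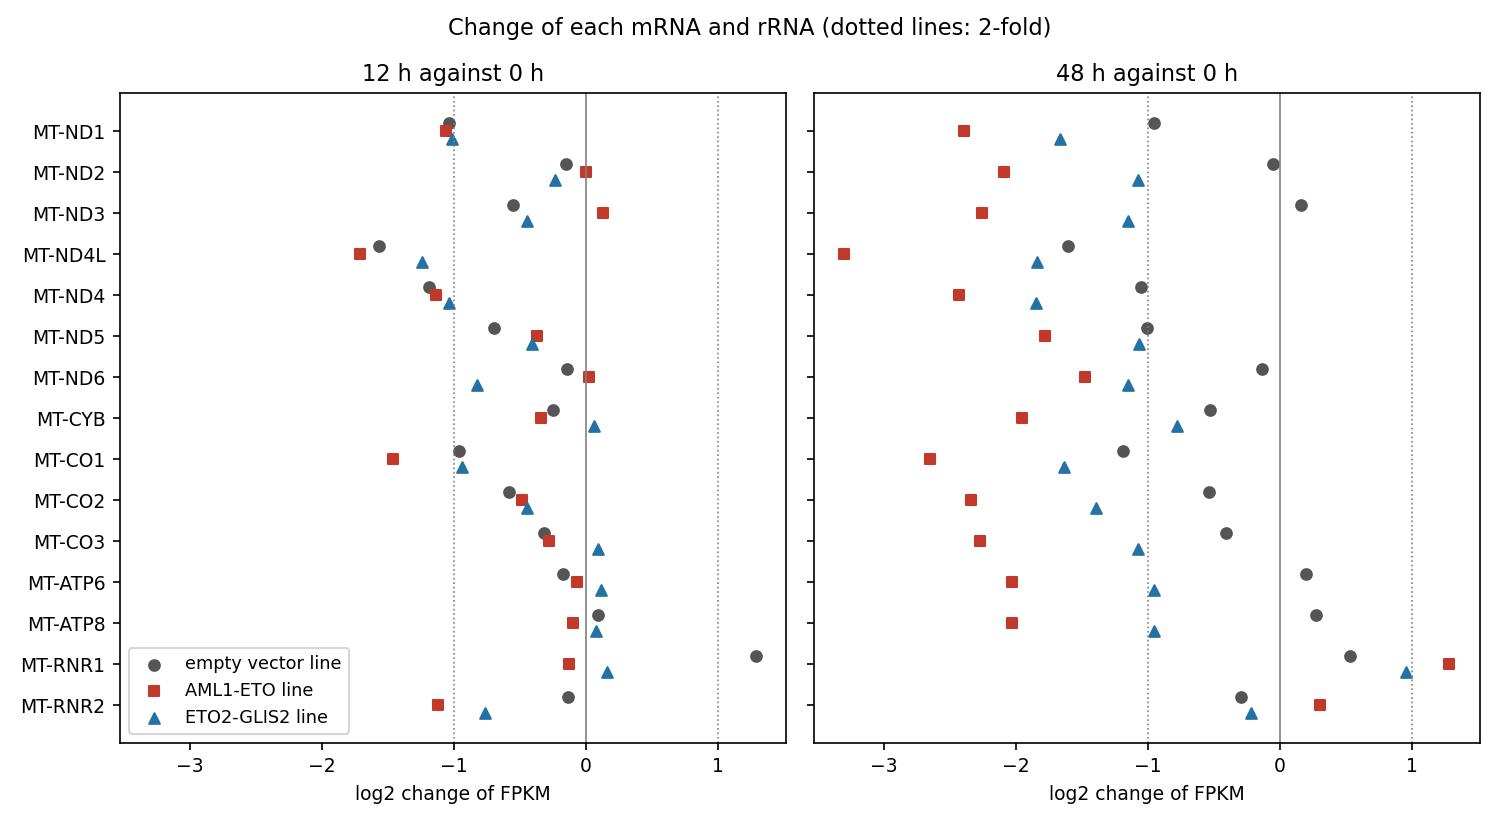
The log2 change of FPKM (x axis) of each mRNA and rRNA (y axis) at 12 h and at 48 h against 0 h of the same line, with 1 marker per line and dotted lines at a 2-fold change. At 12 h MT-CO1, MT-ND1, MT-ND4 and MT-ND4L lie between −1.72 and −0.94 in all 3 lines, and at 48 h all 13 mRNAs of AML1-ETO cells lie between −3.30 and −1.48.

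At 12 h the lines were alike and the genes were not. More than 2-fold lower were 3 of 13 mRNAs in empty vector cells (1.88% of genes tested), 4 with AML1-ETO (2.39%) and 3 with ETO2-GLIS2 (1.46%). With the change of empty vector cells subtracted the count was 0 in both fusion lines, and after rescaling to the summed FPKM of all genes it was 1 in ETO2-GLIS2 cells. The 4 mRNAs with the lowest change were the same 4 genes in every line, MT-CO1, MT-ND1, MT-ND4 and MT-ND4L, a group picked out after its values were seen. Their log2 changes lay between −1.57 and −0.97 in empty vector cells, between −1.72 and −1.06 in AML1-ETO cells and between −1.24 and −0.94 in ETO2-GLIS2 cells. The other 9 mRNAs lay between −0.70 and 0.09, between −0.48 and 0.13 and between −0.83 and 0.11.

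In 6 mRNAs, these 4 with MT-CO2 and MT-ND5, all 3 libraries at 12 h were below all 3 at 0 h, as were 3.30% of all genes. Across the 13 mRNAs the changes at 12 h in the empty vector and AML1-ETO lines had a Pearson correlation of 0.90 (Spearman 0.82), in the empty vector and ETO2-GLIS2 lines 0.84 (0.74), and in both fusion lines 0.75 (0.58). These coefficients are over 13 genes that come from a few long RNAs and describe the libraries only. The 4 genes do not lie side by side, since MT-ND1 (chrM:3307-4262) and MT-CO1 (chrM:5904-7445) are separated by MT-ND2, and MT-ND4L and MT-ND4 follow MT-CO1 with 5 mRNA genes between them. They are also split by the stop codon, which is incomplete in MT-ND1 and MT-ND4 and complete in MT-CO1 and MT-ND4L.

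From 12 to 48 h the lines parted. In empty vector cells none of the 13 mRNAs changed more than 2-fold (2.22% of genes were higher and 3.04% lower), and the median change was 0.05. In AML1-ETO cells all 13 were more than 2-fold lower (10.2% of genes), with a median of −1.61, and in ETO2-GLIS2 cells 3 were (2.14%), with a median of −0.80. None was more than 2-fold higher, against 9.12% and 5.67% of genes. The 4 genes that were lowest at 12 h had a median of −1.31 (range −1.59 to −1.19) in AML1-ETO cells in this step, against −1.93 (range −2.39 to −1.40) for the other 9. In ETO2-GLIS2 cells the medians were −0.67 (range −0.80 to −0.60) and −0.84 (range −1.17 to −0.33), and in both lines the ranges overlapped. Both steps use the 12 h library, so a value that is low there by chance lowers the first step and raises the second.

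Compared with empty vector cells at the same time, the mRNAs of the fusion lines stood apart at 48 h. At 0 h and at 12 h none of the 13 was more than 2-fold away in either fusion line, with medians of −0.25 and −0.18 in AML1-ETO cells and 0.11 and 0.08 in ETO2-GLIS2 cells. Of all genes, 2.24% to 4.37% were more than 2-fold lower in these comparisons and 2.57% to 4.40% more than 2-fold higher. At 48 h 12 of 13 were more than 2-fold lower in AML1-ETO cells (11.7% of genes), MT-ND5 being at 613 against 1203 FPKM, and the median was −1.91. In ETO2-GLIS2 cells MT-ND3 and MT-ND4L were more than 2-fold lower (2.53% of genes), with a median of −0.69. Both comparisons use the same empty vector library.

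The rRNAs, which form the core of the mitochondrial ribosome, did not follow the mRNAs at 48 h in AML1-ETO cells, where their summed FPKM changed by 0.49 on the log2 scale against −2.34 for the mRNAs, nor from 12 to 48 h in ETO2-GLIS2 cells (0.59 against −0.87). At 12 h, however, the rRNA sum was lower along with the mRNA sum in both fusion lines, with log2 changes of −0.93 and −0.65 in AML1-ETO cells and of −0.66 and −0.51 in ETO2-GLIS2 cells. In empty vector cells at 12 h the changes were 0.21 and −0.68. MT-RNR1 (chrM:648-1601) was at 563, 1375 and 814 FPKM in empty vector cells, at 1116, 1019 and 2724 FPKM in AML1-ETO cells and at 733, 820 and 1428 FPKM in ETO2-GLIS2 cells. MT-RNR2 (chrM:1671-3229) was at 2998, 2730 and 2448 FPKM, at 6703, 3083 and 8294 FPKM and at 7750, 4549 and 6658 FPKM. Both were above all other libraries in AML1-ETO cells at 48 h, as were 31.1% of genes.

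In AML1-ETO cells at 12 h MT-RNR2 was more than 2-fold lower than at 0 h (2.39% of genes tested), with a log2 change of −1.12. Against 0 h of AML1-ETO cells MT-RNR1 was 2.44-fold higher at 48 h, past 2-fold as were 17.3% of genes tested, and MT-RNR2 1.24-fold higher. Against empty vector cells at 48 h they were 3.35-fold and 3.39-fold higher (11.8% of genes). In ETO2-GLIS2 cells at 48 h the differences from empty vector cells were 1.75-fold and 2.72-fold (4.15% of genes), and against their own 0 h library MT-RNR1 was 1.95-fold higher and MT-RNR2 was at −0.22 on the log2 scale. In empty vector cells MT-RNR1 was 2.44-fold higher at 12 h (5.64% of genes tested) and 1.44-fold higher at 48 h. MT-RNR2 was already 2.24-fold higher in the uninduced AML1-ETO line and 2.59-fold higher in the uninduced ETO2-GLIS2 line than in the uninduced empty vector line (2.67% and 3.42% of genes), before any drug was given.

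The ratio of summed mRNA to summed rRNA FPKM sets both classes side by side. It was 16.1, 8.70 and 10.8 in empty vector cells at 0, 12 and 48 h, 6.07, 7.35 and 0.852 in AML1-ETO cells and 6.35, 7.07 and 2.57 in ETO2-GLIS2 cells. The AML1-ETO library at 48 h was the only one with more rRNA than mRNA. MT-RNR2 was there, and in ETO2-GLIS2 cells at 48 h, the gene with the highest FPKM of all. The libraries were prepared with a kit that selects polyadenylated RNA, and mitochondrial rRNAs carry only short oligo(A) tails, so an rRNA level and the share of rRNA captured cannot be told apart. The ratio of MT-RNR2 to MT-RNR1 also varied, from 1.98 in empty vector cells at 12 h to 10.6 in the uninduced ETO2-GLIS2 line.

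**Figure D3:**
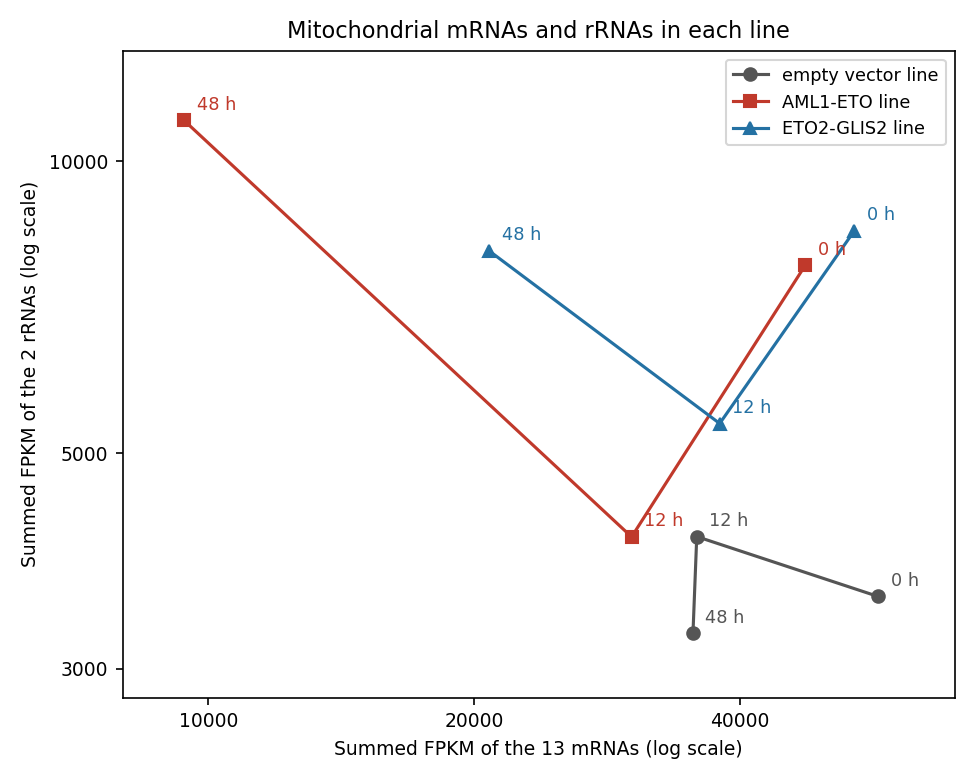
Summed FPKM of the 13 mRNAs (x axis, log scale) against the summed FPKM of the 2 rRNAs (y axis, log scale), with 1 point per library and the time at each point. Between 12 and 48 h the AML1-ETO points move from 30146 to 9389 FPKM of mRNA and from 4102 to 11018 FPKM of rRNA.

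Among the tRNAs only MT-TP, the tRNA for proline, was counted in depth. It lies on the light strand (chrM:15956-16023) beside the non-coding control region, and it is shown with its neighbour MT-TT (chrM:15888-15953), the tRNA for threonine, which had no read in any library.
MT-TP: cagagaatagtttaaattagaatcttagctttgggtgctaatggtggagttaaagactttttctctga
MT-TT: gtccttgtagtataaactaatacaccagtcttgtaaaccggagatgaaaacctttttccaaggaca

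MT-TP had 834 to 2999 reads per library, at least 99.1% of all tRNA reads. In the order of 0, 12 and 48 h it was at 2327, 1664 and 2149 FPKM in empty vector cells, at 1980, 795 and 1343 FPKM in AML1-ETO cells and at 2391, 1110 and 1400 FPKM in ETO2-GLIS2 cells. The 12 h library was the lowest of each line, unlike the mRNAs of the fusion lines, which were lowest at 48 h. Its log2 change was −1.32 (95% interval −1.43 to −1.20) at 12 h and −0.56 (−0.66 to −0.46) at 48 h in AML1-ETO cells, and −1.11 and −0.77 in ETO2-GLIS2 cells. MT-TP was below all 3 uninduced libraries in every library at 12 h, as were 3.30% of genes.

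Of the other 21 tRNAs, 15 were listed at 0 in all 9 libraries, and the remaining 6 had at most 19 reads in a library. A tRNA at 0 is below what 3 reads give, 2.36 to 2.87 FPKM for a gene of 69 bases. The genes are much shorter than a usual sequenced fragment, and by default HTSeq leaves out a read that also touches a neighbour. MT-TP has 2 bases between it and MT-TT and no annotated gene on its other side. At most 4 bases separate most of the other tRNAs from either neighbour. MT-TF (chrM:577-647) also borders the control region with no annotated gene on that side, and it had 0 to 19 reads in a library. Why MT-TP alone was counted in depth was not tested. Reads counted on MT-TP can belong to longer RNAs of either strand that end or start in the control region, which the files do not separate from the tRNA.

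The share of all FPKM held by the 37 genes went from 23.5% at 0 h to 16.3% and 15.5% at 12 and 48 h in empty vector cells, from 20.9% to 13.1% and 8.82% in AML1-ETO cells, and from 22.8% to 16.6% and 12.1% in ETO2-GLIS2 cells. It was thus lower in every induced library than in every uninduced one. The mRNAs alone held 21.3%, 14.1% and 13.5% in empty vector cells, 17.3%, 11.3% and 3.81% in AML1-ETO cells and 18.9%, 14.2% and 8.32% in ETO2-GLIS2 cells. The share of rRNA under AML1-ETO was 2.86%, 1.53% and 4.47%, so at 48 h rRNAs made up the larger part of the mitochondrial FPKM. Counted as reads, the 37 genes held 6.69%, 4.26% and 4.002% in empty vector cells, 6.14%, 3.51% and 2.54% in AML1-ETO cells and 7.01%, 4.59% and 3.32% in ETO2-GLIS2 cells, where the exact 95% intervals are within 0.02 percentage points of each value.

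**Figure D4:**
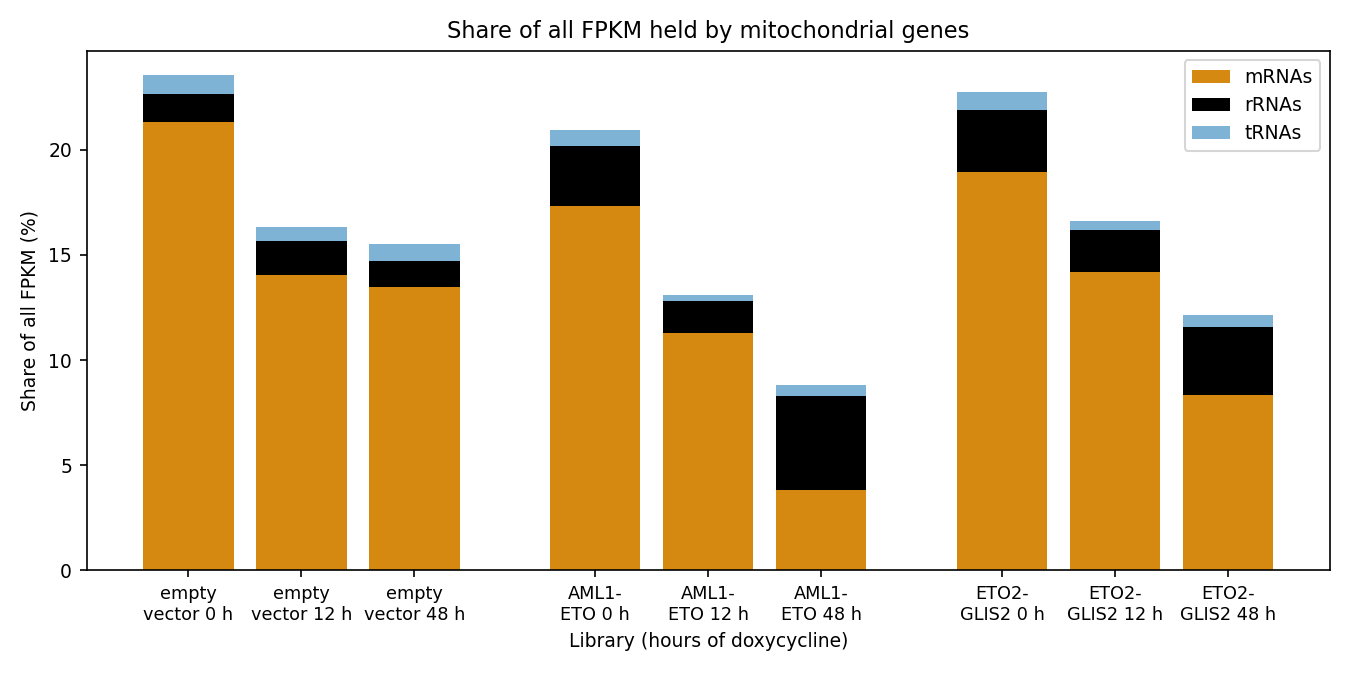
Share of all FPKM in percent (y axis) held by mitochondrial mRNAs, rRNAs and tRNAs, stacked, in each of the 9 libraries. The total is between 20.9% and 23.5% in the uninduced libraries and 8.82% in AML1-ETO cells at 48 h, where the rRNA part exceeds the mRNA part.

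Nuclear copies of mitochondrial genes can take part of the reads, because a read that matches both places may be assigned to either. MTND2P28, a copy of MT-ND2, was at 201, 161 and 167 FPKM in empty vector cells, at 199, 227 and 37.9 FPKM in AML1-ETO cells and at 156, 118 and 65.9 FPKM in ETO2-GLIS2 cells. MTATP6P1, a copy of MT-ATP6, was at 157, 108 and 172 FPKM, at 131, 141 and 31.1 FPKM and at 197, 195 and 103 FPKM. Both had their lowest value in AML1-ETO cells at 48 h, as the mitochondrial genes they resemble did.

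Mitochondrial transcription depends on proteins encoded in the nucleus. Of 16 genes of mitochondrial transcription and replication, 13 were tested at 48 h in AML1-ETO cells, of which 1 was more than 2-fold higher (17.3% of all genes tested were) and none lower (11.3%), with a median log2 change of −0.25. In ETO2-GLIS2 cells none of 14 tested was past 2-fold in either direction (10.8% of genes were higher and 2.54% lower), and the median was 0.02. The 14 include MRPL12, with the lowest change of the list there (−0.56), whose row was at only 0.305 to 1.34 FPKM over the 9 libraries, and whether that row holds the main copy of the gene was not tested. POLRMT, the mitochondrial RNA polymerase, was at 18.7, 16.3 and 14.6 FPKM in empty vector cells, at 16.5, 17.3 and 13.8 FPKM in AML1-ETO cells and at 12.8, 12.7 and 11.6 FPKM in ETO2-GLIS2 cells. TFAM, which packages the genome and opens its promoters, was at 17.3, 17.7 and 16.0 FPKM, at 15.5, 16.7 and 9.13 FPKM and at 17.2, 17.6 and 13.1 FPKM. Its lowest level was that of AML1-ETO cells at 48 h, within 2-fold of 0 h.

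TFB2M, which melts the promoter with POLRMT, was at 20.1, 29.8 and 16.9 FPKM in AML1-ETO cells and at 17.5, 21.2 and 16.2 FPKM in ETO2-GLIS2 cells. TEFM, the elongation factor of the polymerase, was at 2.44, 3.31 and 4.90 FPKM in AML1-ETO cells and was the 1 gene of this list past 2-fold, although empty vector cells went from 2.30 to 3.89 FPKM as well.

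Of 25 measured genes of mitochondrial RNA processing, polyadenylation and decay, 22 were tested in each line, and only PNPT1 was past 2-fold in a fusion line at 48 h, 1 gene higher in AML1-ETO cells against 17.3% of all genes tested and none lower against 11.3%. PNPT1, the polynucleotide phosphorylase that degrades mitochondrial RNA, was at 16.8, 15.0 and 17.6 FPKM in empty vector cells, at 15.2, 20.5 and 52.4 FPKM in AML1-ETO cells and at 16.9, 17.5 and 16.5 FPKM in ETO2-GLIS2 cells. The AML1-ETO library at 48 h stood alone, with a log2 change of 1.78. LRPPRC and SLIRP, the partners that stabilise mitochondrial mRNAs, were at 36.9, 42.9 and 36.3 FPKM and at 6.26, 12.3 and 7.54 FPKM in AML1-ETO cells, and at 46.5, 50.3 and 40.7 FPKM and 7.40, 8.73 and 6.83 FPKM in ETO2-GLIS2 cells. In empty vector cells LRPPRC was at 38.9, 37.6 and 39.0 FPKM and SLIRP at 6.87, 5.67 and 9.41 FPKM. ELAC2, which cuts the 3′ ends of tRNAs, was at 18.9, 20.7 and 17.8 FPKM in AML1-ETO cells, and MTPAP, the mitochondrial poly(A) polymerase, at 2.96, 3.93 and 2.88 FPKM. ELAC2 was at 21.9, 18.9 and 15.9 FPKM in empty vector cells and at 18.6, 19.2 and 14.2 FPKM in ETO2-GLIS2 cells. MTPAP was at 2.55, 3.07 and 3.01 FPKM and at 3.04, 4.30 and 2.79 FPKM in the same order.

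Of 10 nuclear regulators of respiratory genes 9 were tested at 48 h. In AML1-ETO cells YY1, a zinc finger regulator of respiratory genes, was at 15.9, 10.4 and 4.96 FPKM, and MYC, which drives growth and mitochondrial biogenesis, at 35.1, 49.9 and 13.8 FPKM, both more than 2-fold lower at 48 h (11.3% of genes tested). MYC was also lower at 48 h in the other lines, at 40.0, 27.1 and 21.1 FPKM in empty vector cells and at 27.8, 27.5 and 18.1 FPKM in ETO2-GLIS2 cells. None was past 2-fold in ETO2-GLIS2 cells, where YY1 was at 17.3, 16.8 and 17.8 FPKM.

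The nuclear genes whose log2 levels followed the median of the 13 mRNAs most closely over the 9 libraries, out of 4688 with a mean of at least 10 FPKM, were CTNNAL1 (Pearson 0.985), IDH2 (0.972), VRK1 (0.966), SAE1 (0.965) and UGGT1 (0.963). Nuclear copies of mitochondrial genes were left out of this ranking by rule. IDH2, the mitochondrial isocitrate dehydrogenase, was at 146, 112 and 94.2 FPKM in empty vector cells, at 142, 101 and 30.8 FPKM in AML1-ETO cells and at 131, 111 and 76.9 FPKM in ETO2-GLIS2 cells. CTNNAL1, a catenin-like protein, was at 27.5, 19.2 and 12.6 FPKM, at 20.8, 15.0 and 3.09 FPKM and at 25.6, 20.1 and 8.51 FPKM. The coefficients are the highest of many genes over 9 libraries that share their lines and times, and they describe likeness of pattern only.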

How the data were processed

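RNA-seq of the 9 libraries (TruSeq RNA kit, version 2, which does not mark the strand) was processed by the authors, who aligned reads to hg38 with HISAT2 (2.0.5), used SAMtools (1.7) on the alignments and HTSeq (0.9.1, default settings) for the counting, and deposited FPKM for every gene. The submitters' processing notes also list DESeq2 (1.22.2). Which annotation and which exon lengths entered the FPKM is not given in the sources used here. Samples were grouped by the labels.

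Here, Python (3.11.15) with numpy (2.4.6), pandas (2.3.3), scipy (1.17.1) and matplotlib (3.10.9) was used. Library totals were recovered as the most frequent value of reads implied by genes with 1 read, given exon lengths, and reads of the members came out whole (within 0.1) with RefSeq lengths in 95 of 95 low values checked (up to 30000 reads). Changes are log2(FPKM + 0.01) differences, which understate the change of low genes, and a gene was called past 2-fold with a mean FPKM of at least 1. With 1 library per condition no p-value was computed. Intervals are exact Clopper-Pearson intervals (95%) for reads, which are not independent molecules, and binomial order statistics for medians over genes. The calling was tried on simulated counts that held counting error only and no spread between cultures. All 200 genes given a 4-fold change were called, and 92 unchanged genes were called higher and 85 lower. The changed genes were picked among well counted ones, so the trial does not cover changes of low genes or differences between cultures.

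All 13 mRNAs, both rRNAs and tRNAs with at least 3 reads in all 9 libraries are named, with 8 nuclear genes (POLRMT, TFAM, TFB2M, TEFM, LRPPRC, SLIRP, ELAC2, MTPAP), list genes past 2-fold in a fusion line at 48 h (1 of which is not reported here), and the 5 nuclear genes most like the mRNAs. Where identifiers shared a symbol, the one with the highest mean was used. The members and lists were chosen with earlier results of these data known. Coordinates are those of RefSeq for GRCh38.p14, and sequences come from the GENCODE transcripts of the same names, whose lengths equal the RefSeq lengths. Alternatives covered scaling, pseudocount, threshold, filter, reference library, overlapping genes and nuclear copies.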

Additional observations from a re-analysis of the deposited data

Results flagged for a closer look

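MT-ATP8 had changes of opposite sign in 2 lines at both 12 and 48 h. Its log2 change was 0.09 at 12 h and 0.28 at 48 h in empty vector cells, and −0.10 and −2.03 in AML1-ETO cells. The difference between the lines at 48 h was 2.31, which was not tested, since each condition had 1 library. The ETO2-GLIS2 line had 0.07 and −0.95. The changes of empty vector cells, and that of AML1-ETO cells at 12 h, are below the range of 0.67 on the log2 scale that MT-ATP8 had among the uninduced lines. The 12 h libraries held 530 reads of MT-ATP8 in empty vector cells and 460 in AML1-ETO cells. MT-ATP6 had opposite signs at 48 h alone (0.20 against −2.03). MT-ND3 had opposite signs at 48 h (0.16 against −2.26) and, the other way round, at 12 h. There it went from 1235 to 843 FPKM in empty vector cells and from 1035 to 1133 FPKM in AML1-ETO cells.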

How the results depend on the processing

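Depth did not limit the mRNAs, whose lowest count was 119 reads (MT-ATP8), but it did limit the tRNAs other than MT-TP. With the change of empty vector cells subtracted, the median of the 13 mRNAs turned to 0.057 in AML1-ETO and 0.14 in ETO2-GLIS2 cells at 12 h and was −1.70 and −0.79 at 48 h, and the mRNAs more than 2-fold lower numbered 0 in both fusion lines at 12 h and 5 in ETO2-GLIS2 cells at 48 h. Against 0 h of empty vector cells the median of AML1-ETO cells at 48 h was −2.45. After rescaling to the summed FPKM of all genes, 1 mRNA at 12 h and 5 at 48 h were more than 2-fold lower in ETO2-GLIS2 cells. At a threshold of 1.5-fold, 5 were lower at 12 h in the empty vector and ETO2-GLIS2 lines. The shares of all genes called under these alternatives are not given here.

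The log2 change of the share, which was −0.53 and −0.60 at 12 and 48 h in empty vector cells, −0.67 and −1.25 in AML1-ETO cells and −0.45 and −0.91 in ETO2-GLIS2 cells, became −0.65 and −0.74, −0.81 and −1.27, and −0.61 and −1.08 as a share of reads. For the 13 mRNAs alone it was −0.60 and −0.66, −0.62 and −2.19, and −0.42 and −1.19. Rescaling by the median ratio over nuclear genes shifted every gene by −0.17 to −0.12 on the log2 scale and gave rRNA sums of 0.051 and −0.28, −1.10 and 0.33, and −0.78 and −0.24, against 0.21 and −0.13, −0.93 and 0.49, and −0.66 and −0.07. The cause of these differences was not tested. Scaled to genes outside the mitochondrial genome, 1 further mRNA was more than 2-fold lower in empty vector cells, 4 in place of 3 at 12 h and 5 in place of 4 at 48 h, and the fusion lines kept their counts. Without the filter, which was tried for the number of members called only, that number went from 6 to 8 and from 15 to 17 in AML1-ETO cells and from 5 to 6 and from 13 to 15 in ETO2-GLIS2 cells at 12 and 48 h. The share of all genes called without the filter is not given here. The 12 results recomputed with a pseudocount of 1 and the 18 with reads of nuclear copies added kept their direction. No paired analysis was possible because each condition had 1 library and no replicate number is shared; a fit of time with the lines as blocks, which would take the lines as replicates of each other, was not run. Leaving out a replicate could not be done for the same reason.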
